A study of Homo sapiens with 8 samples.

Results

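ATP-binding cassette (ABC) transporters, one of the largest families of human membrane pumps, were followed in prostate cancer cell lines that were resistant or sensitive to enzalutamide, an antiandrogen. The members were all genes whose symbol reads ABC, a letter from A to G and a number, without pseudogenes. The tables listed 34 such genes among 16126 genes in all, and 25 of them among the 12868 genes of all 3 tables. Of the 46 symbols of the role lists, 12 were not listed in any table, among them ABCB1 (P-glycoprotein) and ABCB5. The listed genes fell into 9 efflux transporters, 10 lipid and bile transporters, 4 mitochondrial, 5 peroxisomal or lysosomal, 2 channel regulators and 4 proteins without a membrane domain. Names ending in P and a digit (ABCC6P1 and ABCC6P2, for instance) or in P alone (ABCA11P, ABCA17P) were left out.

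Messenger RNA of 8 libraries was sequenced. C4-2BENZR, an enzalutamide-resistant line, and C4-2B, its sensitive parent, gave 2 libraries each, labelled as biological replicates, and cells of both groups carried luciferase and GFP transgenes. CWR-R1ENZR and CWR-R1 gave 1 library each, as did VCaPENZR and VCaP. C4-2B is a bone-derived castration-resistant derivative of LNCaP, CWR-R1 comes from a relapsed prostate xenograft, and VCaP from a vertebral metastasis. Each resistant line is a single line, and the labels do not say how it was selected or whether drug was present at harvest. Whether the C4-2B replicates came from separate cultures is not stated, so their p-values measure the spread between these libraries. Fewer cells with a transcript and less of it per cell cannot be told apart in such bulk samples.

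An ABC transporter couples ATP hydrolysis in a pair of nucleotide-binding domains to the movement of a substrate through its membrane domains. Members of the B, C and G subfamilies expel drugs, conjugates and cyclic nucleotides. Most A and some G members move cholesterol and phospholipids, and most D members carry fatty acids into peroxisomes. E and F members kept the ATPase part only and act on ribosomes. In prostate epithelium ABCC4 is known as an androgen-responsive member of the family.

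Levels below are the deposited values, reads divided by a scaled library size and close to CPM, and the tables of the 3 lineages were scaled separately. Reads in listed genes numbered 14503586 to 20248655 per library, so 3 reads stood for a level of 0.142 to 0.202. Of 5 luminal prostate markers, KRT8, KRT18, HOXB13 and TMPRSS2 were present in all 8 libraries. KLK3, which encodes prostate-specific antigen, was at 49.2 and 48.1 in C4-2BENZR against 2067 and 2024 in C4-2B, at 0 in CWR-R1ENZR against 1.96 in CWR-R1, and at 0.774 in the library labelled VCaPENZR against 465 in VCaP. HOXB13 was at 34.8 in the library labelled VCaPENZR against 712 in VCaP. DCN, PECAM1 and PTPRC, which mark fibroblasts, endothelium and blood cells, were not listed. The remaining markers of those cells (COL1A1, VWF and HBA1, the last not listed for CWR-R1) summed to 57.2 and 52.6 in C4-2BENZR against 25.4 and 22.1 in C4-2B, to 90.1 in CWR-R1ENZR against 27.9 in CWR-R1, and to 37.0 in the library labelled VCaPENZR against 13.8 in VCaP. In C4-2BENZR only COL1A1 of these was higher, at 53.4 and 48.2 against 15.1 and 12.3 in C4-2B, whereas VWF was at 3.54 and 3.88 against 7.53 and 7.25 and HBA1 at 0.236 and 0.579 against 2.84 and 2.59. The part of these markers in the results was not tested.

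The library labelled VCaPENZR resembled CWR-R1ENZR more than VCaP. Pearson's r of its log2 levels over the 12868 shared genes, which are not independent replicates, was 0.940 against CWR-R1ENZR, 0.890 against CWR-R1 and only 0.728 against VCaP. ERG, which VCaP overexpresses through gene fusion, was at 0.179 (3 reads) in the library labelled VCaPENZR against 428 in VCaP. Over the 25 shared ABC genes, whose levels come from separately scaled tables, the median absolute log2 difference of the library labelled VCaPENZR was 0.31 from CWR-R1ENZR and 0.80 from VCaP. ABCC4, at 341 in the library labelled VCaPENZR, was at 340 in CWR-R1ENZR and at 153 in VCaP. Every difference given below for this lineage therefore compares the library so labelled with VCaP.

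**Figure D1:**
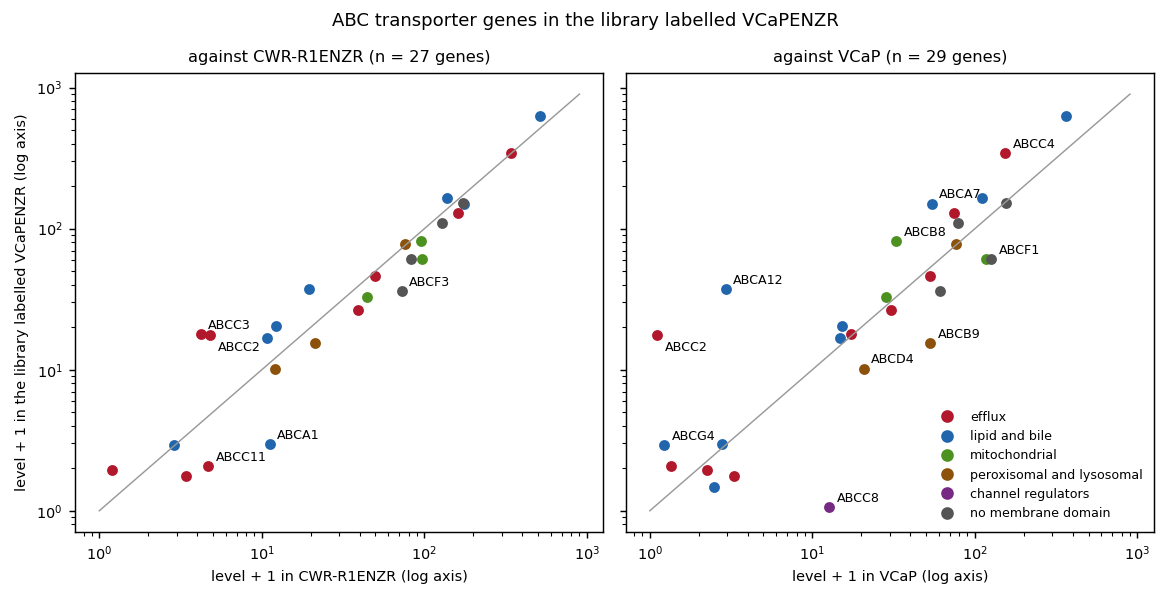
Level + 1 of the ABC genes reported in the library labelled VCaPENZR (vertical, log axis) against CWR-R1ENZR (left, 27 genes) and VCaP (right, 29 genes), with the line of equal levels; each point is 1 gene coloured by role and names mark differences of 2-fold or more in level + 1. The points lie nearer the line on the left, with ABCC4 at 341 against 340 in CWR-R1ENZR; on the right ABCC2, ABCA12 and ABCC8 lie farthest from it.

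ABC genes changed in both directions in C4-2BENZR, about as often as other genes. Of 27 listed members, all of which passed the filter on low values, 8 rose and 8 fell at an adjusted p below 0.05 (limma, 2 libraries against 2, Benjamini-Hochberg over 13280 genes), or 59.3%, against 56.8% of all genes tested (27.8% higher, 29.0% lower). With total counts as the only scaling 12 rose and 7 fell, and all genes shifted likewise, to 4757 higher and 2923 lower against 3691 and 3856 as deposited. Without either C4-2BENZR replicate fewer genes rose, among the ABC genes and over all genes alike, and ABCC8 and ABCG4 then failed the filter on low values. With a change of at least 1.5-fold as a further condition, 5 rose and 4 fell, or 33.3%, against 23.4% of all genes (12.5% higher, 10.9% lower). The median log2 change was −0.0021 over the ABC genes and −0.00075 over all genes. In CWR-R1ENZR, of 26 members with a level of at least 5 in one library, 2 were at least 2-fold higher and 4 at least 2-fold lower than in CWR-R1, or 23.1%, against 20.1% of all genes (9.79% higher, 10.3% lower). In the library labelled VCaPENZR, 6 of 25 members were higher and 4 lower than in VCaP (2 lower with total counts only), or 40.0%, against 43.1% of all genes (21.1% higher, 22.0% lower). With 1 library per group these last comparisons have no replicate check. Folds of single libraries are given with exact 95% intervals from the read counts, which cover counting error only.

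**Figure D2:**
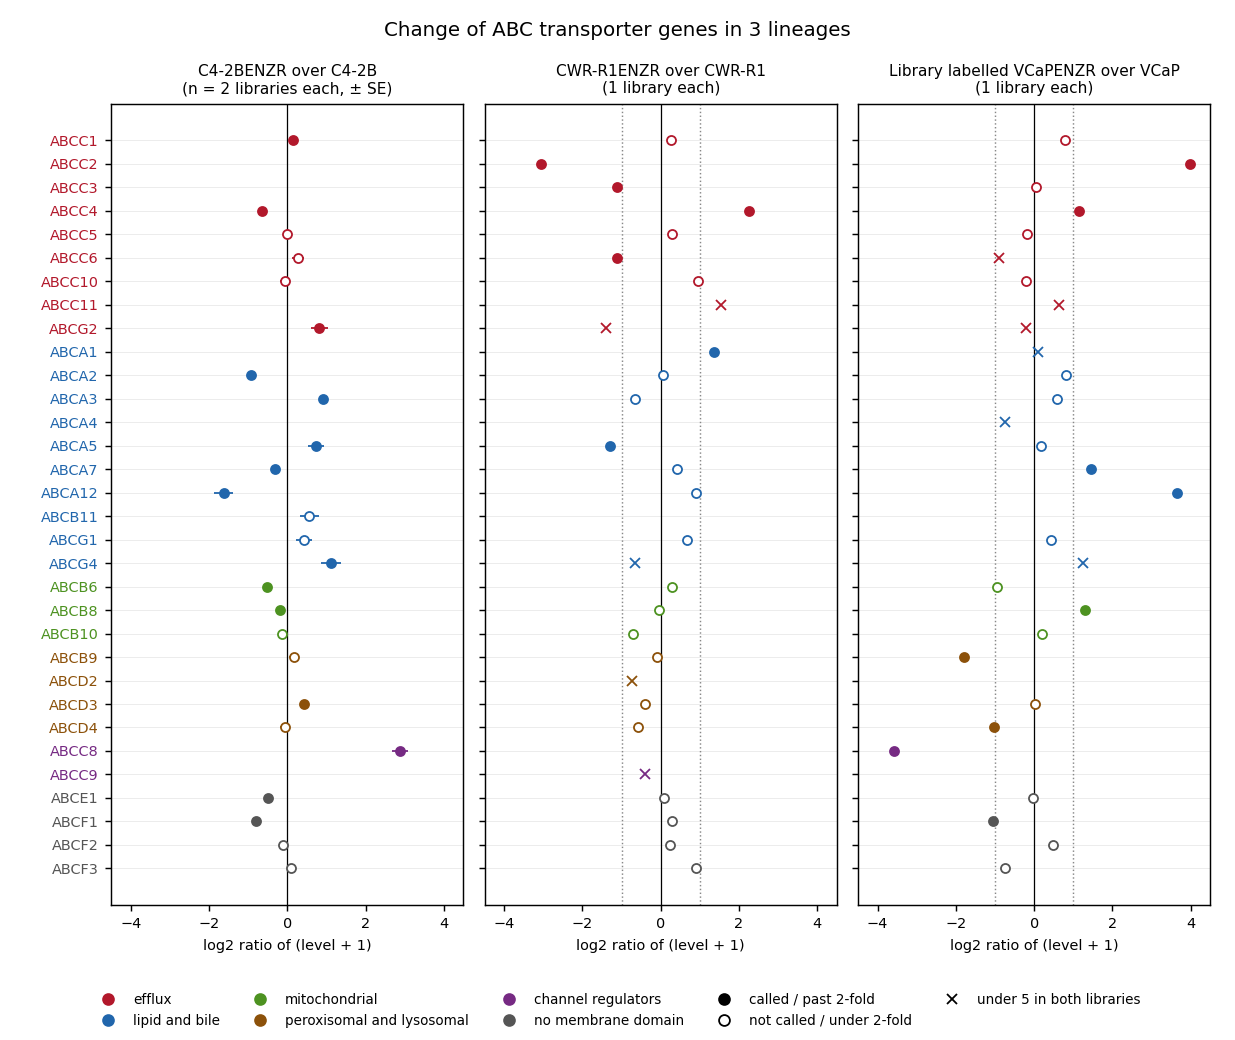
Log2 ratio of level + 1 for the ABC genes reported, ordered by role, in C4-2BENZR over C4-2B (left, mean of 2 libraries per group, bars are the standard error of the limma fit), CWR-R1ENZR over CWR-R1 (middle) and the library labelled VCaPENZR over VCaP (right, 1 library each, dotted lines at 2-fold). Filled points were called at an adjusted p below 0.05 (left) or passed 2-fold (middle, right); ABCC4 lies left of 0 in C4-2B at −0.64 and right of 0 in the other lineages at 2.25 and 1.15.

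ABCC4, ABCC2 and ABCA12 differed in opposite directions between lineages, and their promoters are shown as those of the members with the largest opposite differences for which a window was found. Each stretch is the 250 bases before a RefSeq transcription start in GRCh38.p14, written 5′ to 3′ on the gene's strand, with matches to any searched motif in capitals. ABCC4 lies at chr13:95301452-95301701 on the minus strand, ABCC2 at chr10:99782390-99782639 on the plus strand and ABCA12, at the first of its listed starts, at chr2:215138627-215138876 on the minus strand.
ABCC4: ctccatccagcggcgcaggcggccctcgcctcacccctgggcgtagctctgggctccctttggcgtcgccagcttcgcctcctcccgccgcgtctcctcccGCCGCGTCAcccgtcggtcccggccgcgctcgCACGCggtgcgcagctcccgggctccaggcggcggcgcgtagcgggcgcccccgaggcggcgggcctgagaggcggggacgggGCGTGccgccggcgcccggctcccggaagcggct
ABCC2: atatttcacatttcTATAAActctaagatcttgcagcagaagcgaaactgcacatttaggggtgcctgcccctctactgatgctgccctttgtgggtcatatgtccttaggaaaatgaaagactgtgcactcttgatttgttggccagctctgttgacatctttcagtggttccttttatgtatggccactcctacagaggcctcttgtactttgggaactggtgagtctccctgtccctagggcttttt
ABCA12: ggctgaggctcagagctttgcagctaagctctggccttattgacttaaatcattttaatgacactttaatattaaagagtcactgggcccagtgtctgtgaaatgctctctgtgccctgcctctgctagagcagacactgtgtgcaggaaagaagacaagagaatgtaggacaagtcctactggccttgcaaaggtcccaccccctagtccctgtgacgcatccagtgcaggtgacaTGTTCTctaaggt
The capitals mark an antioxidant response element and a pair of xenobiotic response cores in ABCC4, and an androgen response half-site in ABCA12. In ABCC2 they mark only the letters TATAAA of the TATA box motif. These lie close to the upstream end of the stretch, far from the transcription start, so they do not show a TATA box at that start. The G+C share was 80.4% in the ABCC4 stretch, 45.6% in ABCC2 and 48.8% in ABCA12.

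Such letters are common, and a match is no evidence of binding. On either strand, the half-site AGAACA stood in 7.32% of 41 ABC windows against 12.4% of 35116 windows of all genes, the antioxidant element TGACNNNGC in 22.0% against 10.9%, and the xenobiotic core GCGTG in 48.8% against 32.2%. The GC box GGGCGG stood in 61.0% against 42.6%, the TATA box TATAAA in 9.76% against 10.7%, and the CCAAT box CCAAT in 17.1% against 32.0%. Windows were found for 27 of the 34 genes, several with more than 1 start, and windows of 1 gene can overlap. The antioxidant element was present in 9 genes, among them ABCC4, ABCB6 and ABCA2, which fell in C4-2BENZR, ABCA3, which rose, and ABCC10, which was not called there.

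Among the efflux transporters, ABCC4 fell in C4-2BENZR. It was higher in CWR-R1ENZR than in CWR-R1, and higher in the library labelled VCaPENZR than in VCaP. This gene (MRP4; GRCh38 chr13:95019829-95301475, minus strand, GENCODE 29) encodes an exporter of cyclic nucleotides, prostaglandins and nucleoside drugs. It had levels of 167 and 163 in the C4-2BENZR libraries, against 257 and 261 in the C4-2B libraries. The groups did not overlap, and the log2 change was −0.64 ± 0.05 (SE; limma adjusted p = 2.54e-08). ABCC4 was at 340 in CWR-R1ENZR against 70.8 in CWR-R1, a 4.80-fold difference (4.49 to 5.14). In the third lineage it was at 341 in the library labelled VCaPENZR against 153 in VCaP, 2.23-fold higher (2.13 to 2.33). Per kilobase of exon sequence, ABCC4 ranked 2nd of the ABC genes in CWR-R1ENZR, at 54.3, against 14th in CWR-R1, at 11.3.

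ABCC2 and ABCC3, pumps for glucuronide and glutathione conjugates at the apical and the basolateral membrane, were listed outside the C4-2B table only. ABCC2 (MRP2; chr10:99782640-99852594, plus strand) was at 3.82 in CWR-R1ENZR against 39.2 in CWR-R1, 10.3-fold lower (7.81 to 13.7). In the library labelled VCaPENZR it was at 16.7, against 0.114 (2 reads) in VCaP, a ratio of 146 (40.2 to 1215). ABCC3 was at 3.22 in CWR-R1ENZR against 8.16 in CWR-R1, 2.54-fold lower (1.80 to 3.62), while the other pair differed little, at 16.9 in the library labelled VCaPENZR and 16.4 in VCaP.

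ABCG2 (BCRP), a half-transporter of many drugs and of urate, was low in all libraries. It had 2.50 and 2.90 in C4-2BENZR against 1.34 and 0.880 in C4-2B, on 53 and 50 reads against 26 and 17. The log2 change was 0.82 ± 0.22 (limma adjusted p = 0.00514). Only 1 C4-2B library reached the filter level of 1, so ABCG2 would not have passed through C4-2B alone. Its p-value is therefore no independent support for the rise. The rise was no longer called without C4-2BENZR replicate 2 (adjusted p = 0.0688). In CWR-R1ENZR it was at 0.201 (3 reads) against 2.16 (32 reads) in CWR-R1, 10.7-fold lower (3.36 to 54.8), below the level of 5 set for the counts. In the remaining pair ABCG2 was at 0.953 in the library labelled VCaPENZR and 1.25 in VCaP.

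ABCC1 (MRP1), an exporter of glutathione conjugates and leukotriene C4, had 243 and 238 in C4-2BENZR against 227 and 205 in C4-2B. This narrow difference was called (log2 change 0.16 ± 0.06, limma adjusted p = 0.0287), and the call was lost without a filter on low values (adjusted p = 0.0514), without either C4-2BENZR replicate (0.118 and 0.0535) and without C4-2B replicate 2 (0.314). ABCC1 was at 160 in CWR-R1ENZR against 132 in CWR-R1, and at 129 in the library labelled VCaPENZR against 73.7 in VCaP. ABCC10 (MRP7), an exporter of taxanes, was at 38.3 in CWR-R1ENZR against 19.2 in CWR-R1, a ratio of 2.00 (1.73 to 2.31) that was just under 2-fold in level + 1 (log2 0.96). Its C4-2B libraries overlapped, with 29.3 and 24.9 in C4-2BENZR and 28.8 and 28.1 in C4-2B.

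The remaining efflux members stood at low or even levels. ABCC5 (MRP5), a cyclic nucleotide exporter, ranged from 39.5 to 51.7 over the 8 libraries and its C4-2B groups overlapped. ABCC6, which is needed for ATP release from hepatocytes, was at 2.41 in CWR-R1ENZR against 6.34 in CWR-R1, 2.63-fold lower (1.77 to 3.97). Its near-identical pseudogene ABCC6P1 was at 0.134 and 3.04 in the same libraries, so the authors' counting may have split reads between them. In C4-2B, ABCC6 was not called (adjusted p = 0.121), other than with total counts only (0.0388). ABCC11, the transporter behind wet and dry earwax, was at 3.69 in CWR-R1ENZR against 0.607 (9 reads) in CWR-R1, 6.07-fold higher (2.98 to 13.97), and at 1.07 in the library labelled VCaPENZR against 0.342 in VCaP. By count, 2 of 6 efflux genes rose and 1 fell in C4-2BENZR, 1 of 7 was higher and 3 lower in CWR-R1ENZR, and 2 of 6 were higher in the library labelled VCaPENZR. These counts were 50%, 57.1% and 33.3% of the efflux genes, against 56.8%, 20.1% and 43.1% of all genes.

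**Figure D3:**
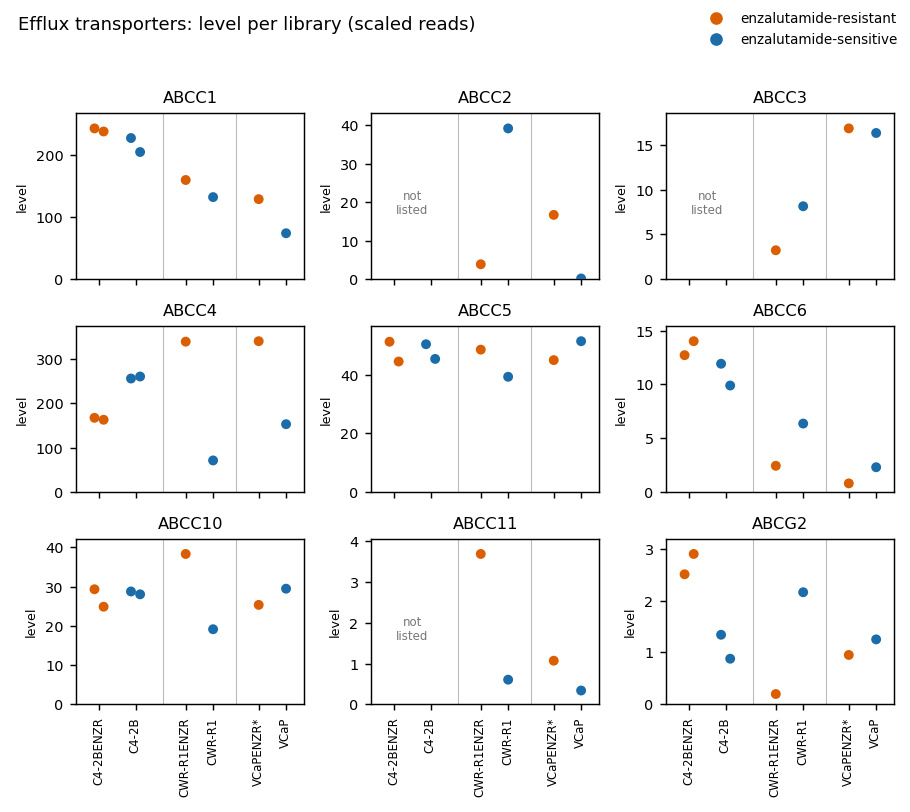
Level (scaled reads, linear axis from 0) of the 9 listed efflux transporters in each library; orange points are enzalutamide-resistant and blue points sensitive libraries, vertical lines separate the 3 tables, and the asterisk marks the library labelled VCaPENZR. ABCC4 is at 163 to 167 in C4-2BENZR and near 340 in the other resistant libraries, against 257 to 261 in C4-2B, 70.8 in CWR-R1 and 153 in VCaP.

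Genes around drug efflux moved unevenly. GGT1, the gamma-glutamyl transferase that degrades extruded glutathione conjugates, was lower in all resistant libraries. It had 51.7 and 54.4 in C4-2BENZR against 192 and 191 in C4-2B (limma adjusted p = 4.56e-13), 19.5 in CWR-R1ENZR against 103 in CWR-R1, and 12.9 in the library labelled VCaPENZR against 175 in VCaP. AHR, the dioxin receptor that binds the xenobiotic core, was at 246 in CWR-R1ENZR against 38.4 in CWR-R1 and at 217 in the library labelled VCaPENZR against 4.90 in VCaP. In C4-2BENZR, AHR had 2.79 and 3.53 against 1.55 and 1.86 in C4-2B (adjusted p = 0.0205), a call lost with DESeq2 (adjusted p = 0.0962), without C4-2BENZR replicate 2 (0.219) and without C4-2B replicate 1 (0.0868). SLC9A3R1, a PDZ scaffold of apical transporters, had 206 and 221 in C4-2BENZR against 356 and 354 in C4-2B (adjusted p = 5.73e-09). MVP, the major vault protein, was at 60.0 in the library labelled VCaPENZR against 3.42 in VCaP. Of the 5 listed genes of this list in C4-2B, 1 rose and 2 fell, or 60%, against 56.8% of all genes. NR1I2, NR1I3 and GSTP1 were not listed.

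Lipid transporters moved both ways in C4-2BENZR, where 3 of 8 rose and 3 fell. In CWR-R1ENZR 1 of 7 was at least 2-fold higher and 1 lower, and in the library labelled VCaPENZR 2 of 6 were higher. These counts were 75.0%, 28.6% and 33.3% of the lipid genes, against 56.8%, 20.1% and 43.1% of all genes. ABCA12, which loads glucosylceramides into the lamellar granules of skin, had 0.473 and 0.695 (10 and 12 reads) in C4-2BENZR against 4.85 and 3.05 in C4-2B. The log2 change was −1.62 ± 0.24 (limma adjusted p = 2.16e-05), and the mean level was 6.77-fold lower. ABCA12 passed the filter on low values only through C4-2B, so its p-value is no independent support for the fall. In the other lineages ABCA12 went the opposite way. It was at 18.5 in CWR-R1ENZR against 9.51 in CWR-R1, a ratio of 1.94 (1.58 to 2.40), and at 36.1 in the library labelled VCaPENZR against 1.94 in VCaP, 18.7-fold higher (13.2 to 27.2).

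ABCA2, an endolysosomal transporter linked to sterol and sphingolipid traffic, ranked 1st per kilobase of exon among ABC genes in both CWR-R1 libraries and in both libraries of the VCaP table. It fell to 166 and 154 in C4-2BENZR, against 323 and 288 in C4-2B (log2 change −0.93 ± 0.06, limma adjusted p = 2.47e-09). The CWR-R1 pair was near equal, at 515 in CWR-R1ENZR and 496 in CWR-R1, and the level was 633 in the library labelled VCaPENZR against 360 in VCaP. ABCA3, which packs phospholipids into lung surfactant bodies, had 99.1 and 96.4 in C4-2BENZR against 53.7 and 49.8 in C4-2B (log2 change 0.90 ± 0.07, adjusted p = 1.51e-08). It was at 138 in CWR-R1ENZR against 219 in CWR-R1, and at 163 in the library labelled VCaPENZR against 109 in VCaP. ABCA2 and ABCA3 thus moved apart in C4-2BENZR, by about the same amount.

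ABCA7, a phospholipid transporter related to ABCA1, had 56.8 and 50.7 in C4-2BENZR against 69.5 and 65.3 in C4-2B (log2 change −0.32 ± 0.08, limma adjusted p = 0.00215). In the library labelled VCaPENZR it was at 149, against 53.5 in VCaP, 2.78-fold higher (2.58 to 3.0), and CWR-R1ENZR had 175 against 131 in CWR-R1. ABCA5, a lysosomal member, had 6.57 and 6.20 in C4-2BENZR against 2.63 and 4.45 in C4-2B (log2 change 0.73 ± 0.21, adjusted p = 0.00668). That call was lost without C4-2B replicate 1, with a log2 change of 0.44 and an adjusted p of 0.0902. ABCA5 was lower in CWR-R1ENZR, at 9.72 against 25.2 in CWR-R1, a 2.59-fold difference (2.13 to 3.16), and it was at 15.7 in the library labelled VCaPENZR against 13.8 in VCaP.

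The cholesterol exporters were of low level. ABCA1, which loads cholesterol onto apolipoprotein A-I, was at 10.2 in CWR-R1ENZR against 3.37 in CWR-R1, 3.02-fold higher (2.18 to 4.24), and at 1.96 in the library labelled VCaPENZR against 1.76 in VCaP. ABCG1, which adds cholesterol to high-density lipoprotein, had 3.45 and 4.63 in C4-2BENZR against 2.48 and 2.95 in C4-2B and was not called (adjusted p = 0.0816), other than with total counts only (0.0397). It was at 11.2 in CWR-R1ENZR against 6.68 in CWR-R1. Its relative ABCG4 had 1.23 and 1.22 in C4-2BENZR against 1 read and no read in the C4-2B libraries (log2 change 1.12 ± 0.24, limma adjusted p = 0.000994), a ratio of summed reads of 47.3 (8.09 to 1909). ABCG4 passed the filter on low values only through C4-2BENZR, so its p-value is no independent support for the rise. ABCG4 was at 1.88 in CWR-R1ENZR against 3.58 in CWR-R1, and at 1.91 in the library labelled VCaPENZR against 0.228 (4 reads) in VCaP. ABCB11, the bile salt export pump, was listed in C4-2B only, with 6.47 and 4.34 in C4-2BENZR and 4.59 and 2.28 in C4-2B, and the groups overlapped (adjusted p = 0.0597). It was called without C4-2BENZR replicate 2 (adjusted p = 0.00942), without C4-2B replicate 1 (0.00144), with total counts only (0.0261) and with a replicate block (0.0127). ABCA4, a retinal transporter, was at 0.476 in the library labelled VCaPENZR and 1.48 in VCaP and was not listed elsewhere.

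**Figure D4:**
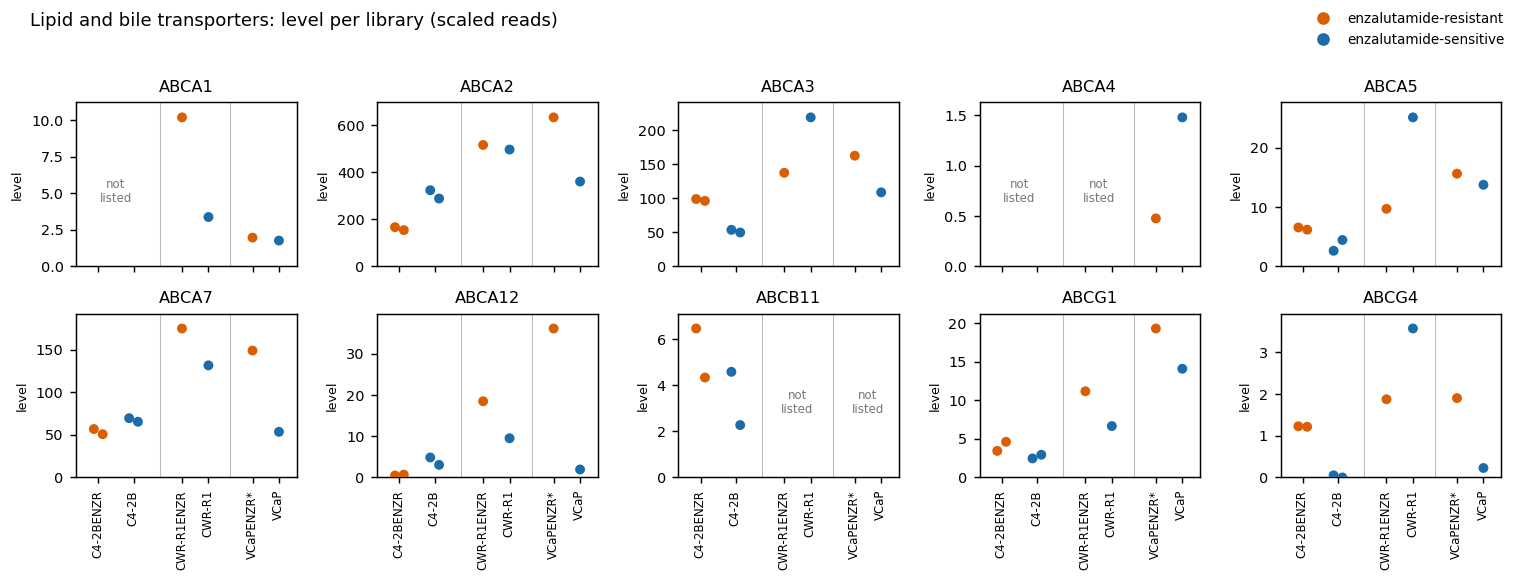
Level (scaled reads, linear axis from 0) of the 10 listed lipid and bile transporters in each library, drawn as for the efflux genes. ABCA12 is at 0.473 and 0.695 in C4-2BENZR against 4.85 and 3.05 in C4-2B, whereas it is at 36.1 in the library labelled VCaPENZR (asterisk) against 1.94 in VCaP; ABCA2 and ABCA3 move apart in C4-2BENZR.

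Genes that share the lipid route with these pumps also differed by lineage. NPC1, which releases cholesterol from lysosomes, had 60.4 and 55.2 in C4-2BENZR against 152 and 163 in C4-2B (limma adjusted p = 3.30e-11), while its soluble partner NPC2 had 50.1 and 55.5 against 36.6 and 37.0 (adjusted p = 8.37e-05). NPC1 went the other way in the library labelled VCaPENZR, at 55.7 against 24.5 in VCaP, 2.27-fold higher (2.02 to 2.55). It was at 60.9 in CWR-R1ENZR against 50.6 in CWR-R1. RXRA, the partner of the liver X receptors, had 113 and 109 in C4-2BENZR against 203 and 180 in C4-2B (adjusted p = 2.68e-08), and 99.8 in the library labelled VCaPENZR against 264 in VCaP. APOE, a lipid acceptor and a target of those receptors, was at 58.3 in CWR-R1ENZR against 10.3 in CWR-R1, and at 12.7 in the library labelled VCaPENZR against 2.73 in VCaP. LCAT, which esterifies cholesterol, was at 8.71 in CWR-R1ENZR against 3.85 in CWR-R1. MYLIP, another receptor target, was at 23.0 in the library labelled VCaPENZR against 5.29 in VCaP. Of 8 listed genes of this list 1 rose and 3 fell in C4-2BENZR, or 50%, against 56.8% of all genes. In CWR-R1ENZR 2 of 9 were at least 2-fold higher, or 22.2%, against 20.1%. In the library labelled VCaPENZR 4 of 8 were higher and 1 lower, or 62.5%, against 43.1%.

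Of the mitochondrial members, 2 of 4 fell in C4-2BENZR and none rose, or 50% called, near the 56.8% of all genes. ABCB6, a porphyrin transporter, had 103 and 107 in C4-2BENZR against 149 and 152 in C4-2B (log2 change −0.52 ± 0.06, limma adjusted p = 1.17e-06). Its exons overlap those of AC068946.2 on the same strand over 94.1% of their length, so reads of either cannot be told apart. It was at 96.2 in CWR-R1ENZR against 78.1 in CWR-R1, and at 59.6 in the library labelled VCaPENZR against 115 in VCaP, 1.93-fold lower (1.79 to 2.09). ABCB8, of the inner membrane, had 59.3 and 66.9 in C4-2BENZR against 73.5 and 70.4 in C4-2B (log2 change −0.19 ± 0.08, adjusted p = 0.0416). That call was lost without C4-2BENZR replicate 1 (adjusted p = 0.411) and without C4-2B replicate 1 (0.140). It was also lost with total counts only (0.318), DESeq2 (0.120), edgeR (0.0505) and no filter on low values (0.0625). In the library labelled VCaPENZR ABCB8 was at 80.3 against 31.9 in VCaP, 2.51-fold higher (2.28 to 2.78), and CWR-R1ENZR had 94.2 against 96.5 in CWR-R1.

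ABCB10, which serves haem synthesis, was not called in C4-2BENZR, with 30.6 and 33.9 in C4-2BENZR and 34.7 and 36.9 in C4-2B (adjusted p = 0.196). It was at 43.2 in CWR-R1ENZR against 71.9 in CWR-R1, 1.66-fold lower (1.51 to 1.84), and at 31.8 in the library labelled VCaPENZR against 27.3 in VCaP, and neither pair reached 2-fold. Of 6 genes of mitochondrial iron and haem, 1 rose and 3 fell in C4-2BENZR, or 66.7%, against 56.8% of all genes. In the library labelled VCaPENZR 1 of the 6 was at least 2-fold higher and 1 lower than in VCaP, or 33.3%, against 43.1%. The higher one was SLC25A37, at 87.1 against 36.7 in VCaP, 2.37-fold higher (2.16 to 2.61). ALAS1, which starts haem synthesis, had 89.0 and 85.6 in C4-2BENZR against 112 and 112 in C4-2B (adjusted p = 0.000121). The iron-sulphur scaffold ISCU had 40.4 and 43.8 against 50.3 and 47.9 (adjusted p = 0.0343), and the iron importer SLC25A37 had 64.0 and 59.4 against 53.3 and 52.9 (adjusted p = 0.0231). Both calls were lost with DESeq2 (adjusted p = 0.107 and 0.0576) and without C4-2BENZR replicate 1 (0.250 and 0.219). That of ISCU was also lost without C4-2B replicate 1 (0.133) and with total counts only (0.239), and that of SLC25A37 without C4-2B replicate 2 (0.0545).

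Of the peroxisomal and lysosomal members, 2 of 4 rose in C4-2BENZR and none fell, or 50% called, again near the 56.8% of all genes. ABCD3, the carrier of branched fatty acids and bile acid precursors, had 91.6 and 104 in C4-2BENZR against 71.5 and 74.6 in C4-2B (log2 change 0.42 ± 0.07, limma adjusted p = 0.000125), but was at 74.8 in CWR-R1ENZR against 99.7 in CWR-R1. ABCD4, a cobalamin transporter of lysosomes, overlapped between the C4-2B groups and was at 9.17 in the library labelled VCaPENZR against 19.6 in VCaP, 2.14-fold lower (1.77 to 2.61). ABCB9, a lysosomal peptide transporter, was at 14.5 in the library labelled VCaPENZR against 52.1 in VCaP, 3.60-fold lower (3.13 to 4.17), and 38.4% of its exon length is overlapped by AC026362.1 on the opposite strand. ABCD2 was at 0.536 in CWR-R1ENZR and 1.55 in CWR-R1.

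LMBRD1, which works with ABCD4 in cobalamin export, had 8.98 and 11.6 in C4-2BENZR against 19.1 and 18.8 in C4-2B (limma adjusted p = 0.000117). It was the only called gene among 5 of its list, or 20%, against 56.8% of all genes. PEX16, a peroxisome assembly factor, was at 24.7 in the library labelled VCaPENZR against 11.7 in VCaP. TAP1, an ABC gene under another symbol that carries peptides for antigen presentation, was higher in every resistant library. It had 32.0 and 35.4 in C4-2BENZR against 18.5 and 14.6 in C4-2B (adjusted p = 3.44e-06), 81.8 in CWR-R1ENZR against 37.2 in CWR-R1, and 108 in the library labelled VCaPENZR against 33.5 in VCaP. Its partner TAP2 was not called in C4-2BENZR (limma adjusted p = 0.609). TAP2 was at 73.9 in CWR-R1ENZR against 46.3 in CWR-R1, 1.59-fold higher (1.45 to 1.76). In the library labelled VCaPENZR it was at 65.1 against 51.3 in VCaP, 1.27-fold higher (1.16 to 1.39), and neither pair reached 2-fold.

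ABCC8 (SUR1; chr11:17392498-17476879, minus strand), the sulphonylurea receptor that gates ATP-sensitive potassium channels, was the member with the largest rise in C4-2BENZR. It had 7.84 and 7.12 in C4-2BENZR (166 and 123 reads) against 0.155 and 0.155 (3 reads each) in C4-2B. The log2 change of level + 1 was 2.88 ± 0.21 (limma adjusted p = 7.54e-09), and the ratio of summed reads was 48.5 (22.0 to 133). The VCaP table held the reverse, with 0.0595 (1 read) in the library labelled VCaPENZR against 11.7 (206 reads) in VCaP, a ratio of 197 (35.0 to 7817). ABCC8 was not listed for CWR-R1. Its channel partner KCNJ11 had 7.75 and 9.73 in C4-2BENZR and 7.43 and 7.45 in C4-2B and was not called (adjusted p = 0.321). KCNJ8, the pore that pairs with ABCC9, had 1.51 and 1.16 in C4-2BENZR against no read in C4-2B, where 3 reads would give 0.155 (limma adjusted p = 0.000510). ABCC8 and KCNJ8 passed the filter on low values only through C4-2BENZR, where they are high. Their p-values are therefore no independent support for the rise. ABCC9 itself was listed only for CWR-R1, at 0.737 in CWR-R1ENZR and 1.28 in CWR-R1.

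The members without a membrane domain were among the most abundant ABC genes per kilobase of exon. In C4-2BENZR, ABCF3 ranked 1st at 49.4, ABCF2 2nd at 47.0 and ABCE1 4th at 34.5. ABCE1, which splits ribosomes after termination, fell to 133 and 138 in C4-2BENZR, against 182 and 198 in C4-2B (log2 change −0.48 ± 0.06, limma adjusted p = 2.90e-06). ABCF1, which binds initiation factor 2, fell to 72.3 and 81.5, against 138 and 130 in C4-2B (log2 change −0.80 ± 0.07, adjusted p = 5.71e-08). ABCF1 was also at 60.0 in the library labelled VCaPENZR against 125 in VCaP, 2.08-fold lower (1.93 to 2.25), but at 82.2 in CWR-R1ENZR against 67.6 in CWR-R1. ABCE1 was near even in those lineages, at 172 in CWR-R1ENZR against 162 in CWR-R1 and at 150 in the library labelled VCaPENZR against 154 in VCaP.

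ABCF2 and ABCF3, further ribosome-associated ATPases, were not called in C4-2BENZR (adjusted p = 0.0788 and 0.188). ABCF2 was called with a replicate block (0.0165) and ABCF3 with total counts only (0.00862). AC021097.2 overlaps 54.0% of the exon length of ABCF2 on the same strand. ABCF3 was at 71.6 in CWR-R1ENZR against 38.2 in CWR-R1, a ratio of 1.87 (1.69 to 2.08), and at 34.9 in the library labelled VCaPENZR against 59.6 in VCaP. The ribosome rescue factors fell beside ABCE1 in C4-2BENZR. HBS1L had 68.7 and 77.7 in C4-2BENZR against 91.2 and 104 in C4-2B (limma adjusted p = 0.000291), and PELO had 38.6 and 41.0 against 52.1 and 52.4 (adjusted p = 0.000665). GCN1, which relays ribosome stalling to the kinase EIF2AK4, rose to 497 and 451, against 410 and 360 in C4-2B (adjusted p = 0.000629). These genes went the other way in the library labelled VCaPENZR, where HBS1L was at 149 against 54.4 in VCaP, PELO at 53.4 against 24.0 and GCN1 at 208 against 446. Of 6 genes of this list 1 rose and 3 fell in C4-2BENZR, or 66.7%, against 56.8% of all genes.

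No ABC gene passed 1.5-fold in the same direction in all 3 lineages, of 20 members that could be compared, against 2.39% of 10655 genes in all. Without the VCaP lineage the count was also 0, of 21 members, against 5.65% of 10885 genes. A shared sign at any size was found for 3 of 20 members over the 3 lineages, against 29.2% of all genes, and for 7 of 21 over C4-2B and CWR-R1, against 53.8%. Among the 3 were ABCC1, higher in each lineage, and ABCD4, lower in each. ABCD4 was not called in C4-2BENZR, and its log2 change turned from −0.07 to 0.032 there with total counts only. Over all 41 partner genes, 38 were listed. In C4-2BENZR 6 rose and 12 fell of 34 (10 and 9 with total counts only), or 52.9%, against 56.8% of all genes. In CWR-R1ENZR 4 were higher and 1 lower of 34, or 14.7%, against 20.1% of all genes, and in the library labelled VCaPENZR 11 were higher and 4 lower of 33, or 45.5%, against 43.1%.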

How the data were processed

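Column-purified, DNase-treated RNA of prostate cancer cell lines was sequenced as paired ends, per the labels. For each lineage the authors deposited a table holding a signal per library, a signed fold score, a false discovery rate and a p-value; only the signal was used. The submitters' processing notes name hg19; the aligner and counter were not given in the sources used here. Within 0.02 reads, 100% of the deposited signal values were whole multiples of 1 read, and the reads recovered from them served edgeR 4.0.16, DESeq2 1.42.0 and the exact (Clopper-Pearson) intervals.

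For C4-2B, limma 3.58.1 (trend, no block) was fitted to log2(value + 1) after keeping genes that reached 1 in 2 or more libraries, two-sided, Benjamini-Hochberg adjusted at 0.05. It called 7547 genes, and edgeR on recovered reads called 7522. The single libraries of CWR-R1 and VCaP were compared by ratios of value + 1 without a test. This scale understates the change of low genes. Scripts were tested on simulated data. Members, roles and lists were chosen with earlier results of these data known. Members are named except a few that, like 1 partner gene, are not reported here; partner genes are up to 3 per list, those with the largest change among called ones, and TAP2 and KCNJ11 were added after their values were seen. GCN1 was matched under its newer symbol. Gene positions (GENCODE 29) and promoters (RefSeq, GRCh38.p14) are of another build than the tables and served for description only. Alternatives covered pseudocount, filter, scaling, test, block, threshold and each library left out.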

Additional observations from a re-analysis of the deposited data

Results flagged for a closer look

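The 8 genes below differed in opposite directions between lineages (log2 ratio of level + 1, resistant over sensitive). In C4-2B a called change of any size without overlap counted. In the other lineages 2-fold or more with at least 10 reads in sum was needed. The share of all genes that meet this rule was not counted, so the 8 cannot be set against a background. The difference between lineages was not tested, since CWR-R1 and VCaP have 1 library per group.

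ABCC4 was at −0.64 in the C4-2B lineage, 2.25 in CWR-R1 and 1.15 in VCaP. ABCA12 was at −1.62 in C4-2B and 3.66 in VCaP. ABCC8 was at 2.88 in C4-2B and −3.59 in VCaP. ABCC2 was at −3.06 in CWR-R1 and 3.99 in VCaP. ABCG2 was at 0.82 in C4-2B and −1.40 in CWR-R1, and ABCA5 at 0.73 in C4-2B and −1.29 in CWR-R1. ABCA7 was at −0.32 in C4-2B and 1.46 in VCaP, and ABCB8 at −0.19 in C4-2B and 1.30 in VCaP. The C4-2B call of ABCB8 was lost with edgeR, DESeq2, total counts only and no filter on low values. The C4-2B calls of ABCG2 and ABCA5 each depended on 1 library, and ABCG2 had only 3 reads in CWR-R1ENZR. In the C4-2B lineage, ABCC8, ABCA12 and ABCG2 reached the filter on low values in both libraries of 1 group only. Their p-values there are no independent support for the change. The values given for VCaP rest on the library labelled VCaPENZR, which lay closer to CWR-R1ENZR than to VCaP.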

How the results depend on the processing

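The 16 ABC calls in C4-2B numbered 9 with at least 1.5-fold as a further condition (5 higher instead of 8, 4 lower instead of 8). Leaving out 1 library gave 5 to 8 higher genes, with 5 without either C4-2BENZR replicate. ABCC8, ABCG4 and the partner gene KCNJ8 drop out by construction without either C4-2BENZR replicate, since their C4-2B levels are under the filter. ABCA12 drops out likewise without either C4-2B replicate, since its C4-2BENZR levels are under the filter. Their calls could not be checked by leaving out those libraries. With total counts only, which moved the median of all genes by 0.096, the partner genes counted 10 higher instead of 6, and all genes split 4757 higher and 2923 lower instead of 3691 and 3856; for VCaP, 2 ABC genes were then lower instead of 4. At 1.5-fold, 12 ABC genes differed in CWR-R1ENZR instead of 6, of them 6 higher instead of 2; with a pseudocount of 2, 2 were lower instead of 4.

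Only genes that were not called changed sign. ABCC10 was at 0.029 with total counts only, and at −0.18 to 0.045 with 1 library left out. ABCC5 was at 0.0036 with size factors, 0.098 with total counts only, 0.012 with edgeR and 0.0082 with DESeq2, and at −0.10 to 0.098 with 1 library left out. ABCD4 was at 0.032 with total counts only, and at −0.27 to 0.13 with 1 library left out. The cause was not tested. Same-numbered libraries did not deviate together (r = 0.0502 over 13280 genes), so the numbers were not taken as pairs. A replicate block gave 18 ABC calls, adding ABCB11 and ABCF2.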
